A study of Mus musculus with 6 samples.

Results

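Potassium channels let potassium ions leave or enter the cell and so set the resting potential, shape the action potential and limit repetitive firing. Voltage-gated channels open on depolarisation, calcium- and sodium-activated channels follow the ions that enter during activity, inward rectifiers and two-pore channels carry current near rest, and auxiliary subunits change the gating and traffic of the pore subunits. In the dentate gyrus, the entry station of the hippocampus, these currents keep granule neurons hard to excite. CpG methylation, the attachment of a methyl group to cytosine before guanine, is usually scarce at CpG-rich promoters and frequent in gene bodies.

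The family was taken as the protein-coding autosomal genes of GENCODE M21 whose symbol begins with Kcn, which are 92 of 20807 such genes. A gene was kept when at least 5 covered cytosines lay between 1 kb upstream of its start and its end, and 79 Kcn genes passed, against 14879 of all genes. The 79 genes held 4414 CpG cytosines of the 890041 covered cytosines of the table, with no cytosine in the windows of 2 kept genes. Another 7 members had 1 to 4 covered cytosines (Kcne4, Kcnj14, Kcnj9, Kcnk16, Kcnk18, Kcnmb1 and Kcnv2) and 6 had 0 (Kcne2, Kcnj1, Kcnj16, Kcnk7, Kcnmb3 and Kcnrg). These 13 genes were not described further.

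The measurements came from reduced representation bisulfite sequencing, which reads mainly CpG-rich fragments of genomic DNA, of micro-dissected dentate gyrus. All 6 libraries came from different female C57BL/6JRj mice aged 4.5 months, 3 kept in standard cages (STD) and 3 in an enriched environment (ENR), a setting with more space, objects and company. The comparison asks whether housing goes with a different methylation of these genes. Each value is the percentage of reads over a cytosine that were methylated. Read numbers are not part of the table, so the depth behind a site is unknown beyond the minimum of 10 reads.

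Both libraries numbered 3 had the lowest mean levels, though not in every gene. Over the 79 genes the mean level was 23.1%, 22.5% and 20.9% in the STD libraries 1, 2 and 3 and 23.0%, 22.8% and 19.9% in the ENR libraries, and ENR library 3 was the lowest of the 6 in 37 genes and STD library 3 in 27. The same libraries were lowest over all sites of the table. Dentate gyrus tissue holds several cell types, so a different share of a cell type and a different methylation within it cannot be told apart. Promoters of 5 granule neuron markers (Prox1, Calb1, C1ql2, Dsp and Neurod1) were nearly unmethylated, their mean ranging from 1.61% to 2.05% in the STD and from 1.12% to 1.63% in the ENR libraries. The mean of the 4 covered oligodendrocyte marker promoters of 5 ranged from 16.0% to 24.8% in the STD and from 17.3% to 27.8% in the ENR libraries. Mag among them had 2 sites and ran from 33.5% to 83.0%. Over the 6 libraries Cnp (31 sites) averaged 7.05%, Sox10 (27 sites) 17.3% and Mbp (64 sites) 8.17%. The mean of 5 astrocyte marker promoters ranged from 19% to 22.2% in the STD and from 15.6% to 19.9% in the ENR libraries. The astrocyte mean was 3.12 points lower in ENR mice, with Gfap (7 sites) at -9.62, Aqp4 (10 sites) at -5.16, Aldh1l1 (29 sites) at -1.59, Slc1a2 (84 sites) at -0.213 and Gja1 (20 sites) at 1.00 points. Of 5 microglial markers 2 were covered, P2ry12 (4 sites) and Aif1 (3 sites). Their mean ranged from 31.6% to 45.4% in the STD and from 30.4% to 49.7% in the ENR libraries. The part of cell composition in the differences below was not tested.

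The sequences on which the results turn are given here from the forward strand of GRCm38 (mm10), 5′ to 3′. A capital C marks a covered cytosine on the forward strand and a capital G one read on the reverse strand. The first lies in an exon of Kcnk4, and is shown because CpGs on both strands were lower in ENR mice. A pair comes from the intron of Kcnq1 that holds the start of the antisense RNA Kcnq1ot1, one end methylated and the other not. The Kcnc1 sequences carry runs of sites on 1 strand that differed in opposite directions, and Kcnab1 had the largest promoter difference among members whose groups did not overlap. The last pair lies next to starts of non-coding transcripts inside Kcnab2 and Kcnn4 and was methylated in every library.
Kcnk4 exon, chr19:6928046-6928075: CggtcccCGactccCgccagcagcatccCG
Kcnq1 intron, methylated end, chr7:143295374-143295444: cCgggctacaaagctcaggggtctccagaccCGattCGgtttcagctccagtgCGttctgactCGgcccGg
Kcnq1 intron, unmethylated end, chr7:143295468-143295619: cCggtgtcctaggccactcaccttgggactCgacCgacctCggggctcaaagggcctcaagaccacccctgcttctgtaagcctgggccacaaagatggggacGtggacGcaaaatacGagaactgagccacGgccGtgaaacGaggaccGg
Kcnc1 exon end, chr7:46398210-46398270: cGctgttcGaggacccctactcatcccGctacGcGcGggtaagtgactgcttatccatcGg
Kcnc1 intron, chr7:46418327-46418381: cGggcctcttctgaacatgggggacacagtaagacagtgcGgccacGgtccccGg
Kcnab1 first exon, chr3:65109879-65109968: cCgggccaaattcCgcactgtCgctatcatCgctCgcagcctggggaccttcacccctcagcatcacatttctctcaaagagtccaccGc
Kcnab2 inner start, chr4:152430349-152430539: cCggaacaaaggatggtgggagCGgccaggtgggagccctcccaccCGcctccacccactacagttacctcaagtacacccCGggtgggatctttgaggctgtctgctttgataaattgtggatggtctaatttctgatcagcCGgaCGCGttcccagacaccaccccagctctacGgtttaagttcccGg
Kcnn4 inner start, chr7:24382175-24382236: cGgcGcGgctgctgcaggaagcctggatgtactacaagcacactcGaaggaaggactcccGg

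Levels varied far more between genes than between mice. Over the 6 libraries the gene means ran from 1.25% for Kcnj2, the Kir2.1 channel that anchors the resting potential, to 89.8% for Kcna10. The family mean was 22.2% ± 1.11 (SD, n = 3) in STD and 21.9% ± 1.75 in ENR mice. The median gene stood at 17.0%, against 8.53% over all 14879 genes, and 17 of 79 members (21.5%) were under 5%, against 38.3% of all genes.

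The 5 least methylated members were Kcnj2, Kcna4, Kcna1, Kcnf1 and Kcna6. Kcna1, which encodes the axonal Kv1.1 subunit, had 2.07%, 1.67% and 1.55% in the STD and 1.95%, 1.41% and 2.34% in the ENR libraries over 154 sites. Kcna4, the A-type Kv1.4 subunit, had 1.21%, 0.796% and 2.40% against 0.926%, 1.14% and 2.45%. The groups overlapped in each of the 5.

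The 5 most methylated were Kcna10, Kcnc2, Kcnu1, Kcnj15 and Kcna5, with 6 to 16 sites each. Kcnu1 encodes the sperm channel Slo3 and had 86.9%, 89.2% and 83.7% in the STD and 88.3%, 89.1% and 74.5% in the ENR libraries. Kcnc2 encodes Kv3.2, a channel of fast-spiking interneurons, and had 93.0%, 89.3% and 81.1% against 85.5%, 85.8% and 85.3%. Kcna10, Kcnc2 and Kcnu1 had no covered site in a promoter, so their levels describe gene bodies alone. Across the 79 genes the level fell as the share of promoter sites rose (Spearman's rho = -0.673). The points of this correlation share libraries, and the share of sites in promoters is set by which fragments were sequenced.

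**Figure D1:**
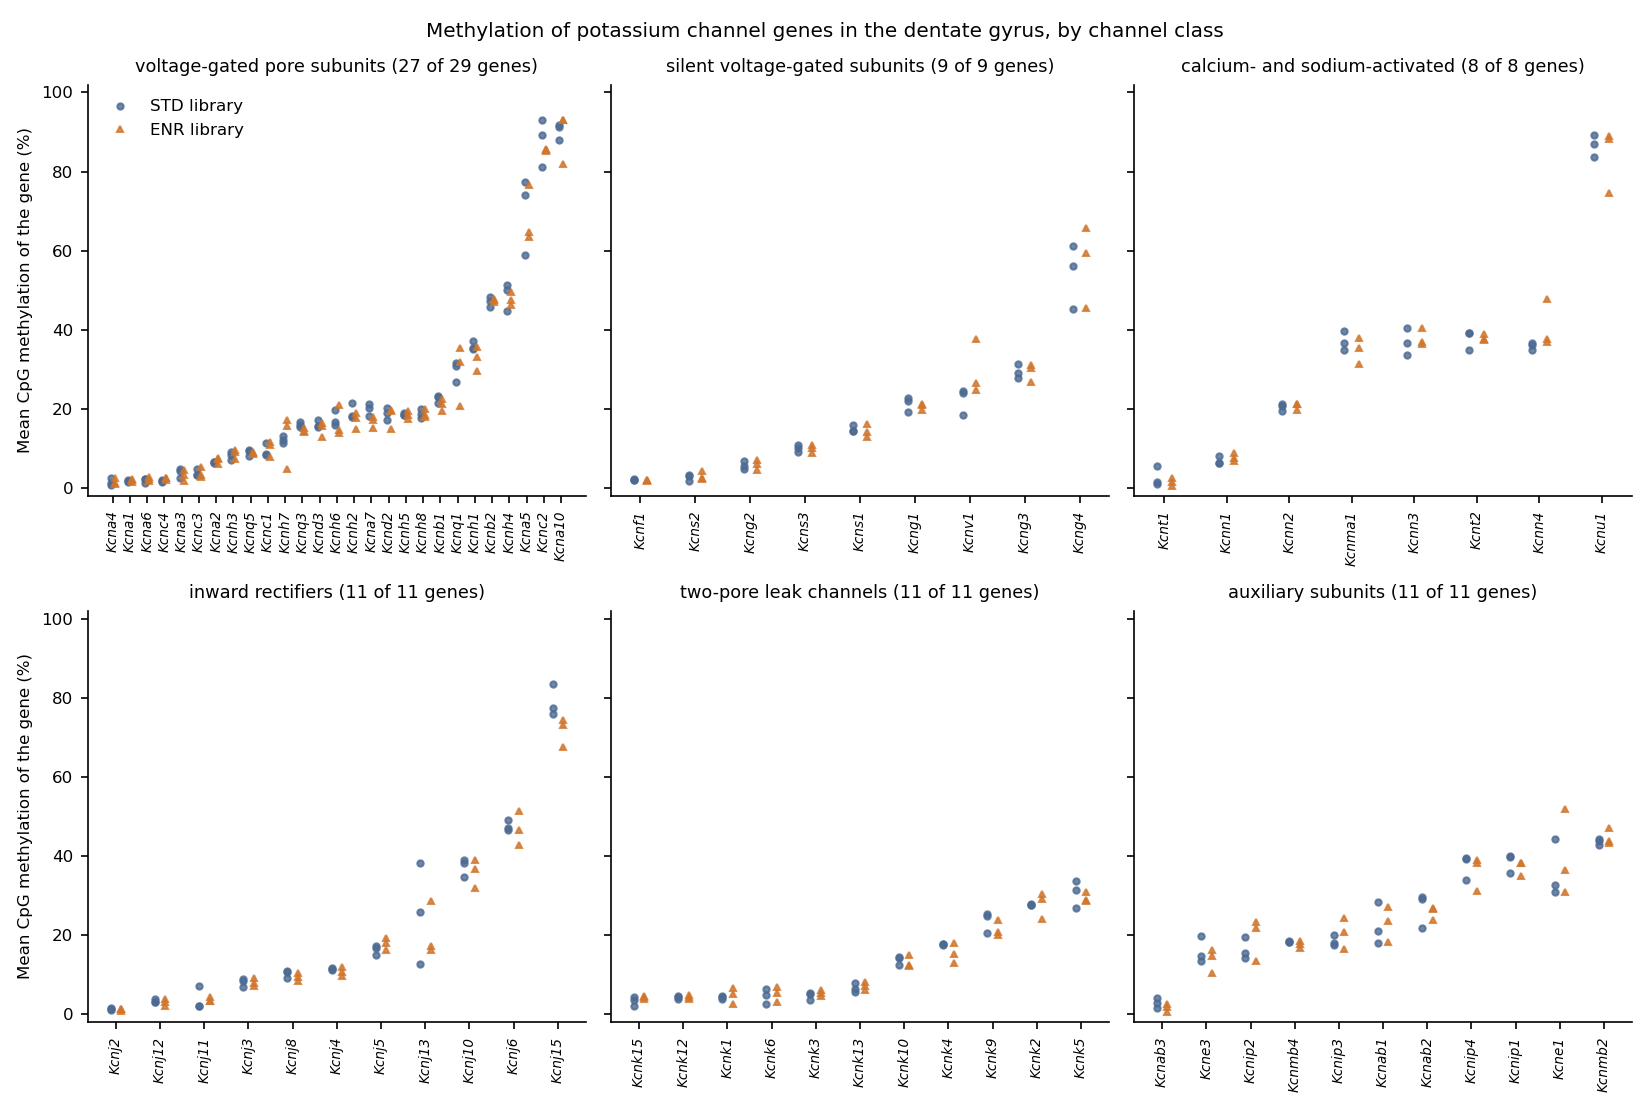
Mean CpG methylation of 77 of the 79 potassium channel genes (vertical axis, percent) by channel class, with circles for the 3 STD and triangles for the 3 ENR libraries. Genes run from 1.25% (Kcnj2) to 89.8% (Kcna10), and within most genes the libraries lie close together compared with that range.

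Levels also rose with distance from a transcription start. In the 250 bp before a start the 755 sites of 65 Kcn genes averaged 3.07% ± 0.228 in STD and 3.16% ± 0.208 in ENR mice. The level was 10.9% ± 1.28 and 11.4% ± 1.82 at 1 to 2 kb, and 58.2% ± 2.67 and 57.1% ± 3.83 beyond 20 kb inside the gene. Over the sites of all gene windows the level beyond 20 kb was 44.1% ± 2.14 in STD and 43.2% ± 3.45 in ENR mice. Kcn sites at this distance came from 30 genes. Between 1 and 2 kb the order was the other way, since all gene windows stood at 17.7% ± 0.862 and 17.2% ± 1.46.

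**Figure D2:**
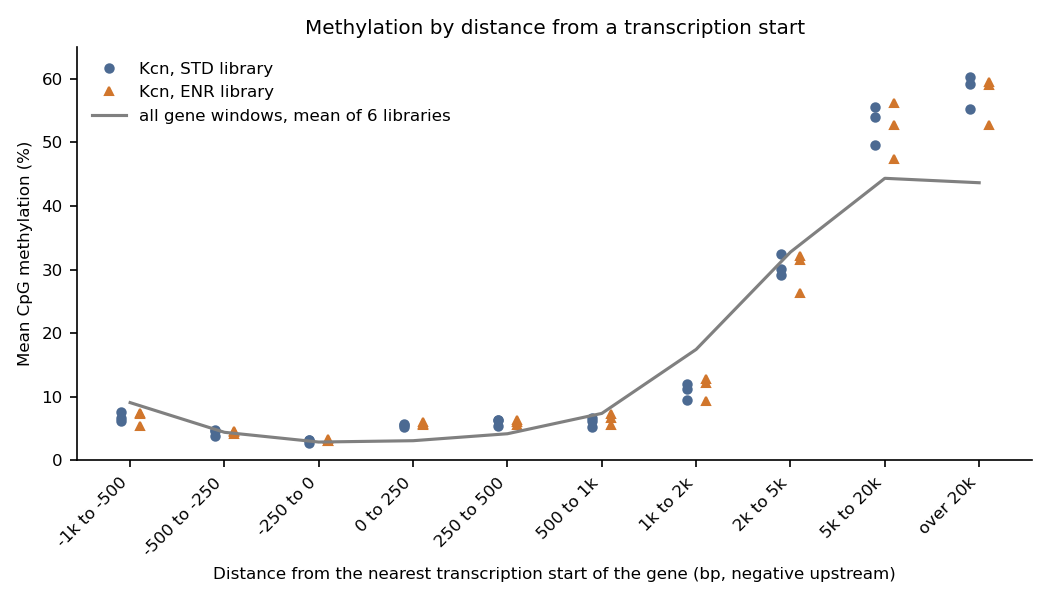
Mean CpG methylation (percent) by distance from the nearest transcription start of the gene (bp), with circles for STD and triangles for ENR libraries over Kcn sites and a line for all gene windows. Kcn sites rise from 3.07% just before a start to 58.2% beyond 20 kb in STD mice, and the STD and ENR points overlap in every bin.

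Of the 4414 sites, 2931 lay in promoters, within 1 kb of a start of any transcript, and averaged 5.10% ± 0.241 in STD and 5.25% ± 0.389 in ENR mice. The 1483 sites outside promoters averaged 43.8% ± 2.28 and 42.8% ± 3.61. Sites were counted as island-like if G and C made up 50% or more of the sequence from 100 bp before to 100 bp after them, with CpG no rarer than 0.6 of what its base composition predicts. Island-like promoter sites (2132) stood at 2.87% ± 0.124 and 3.03% ± 0.0519, and other promoter sites (799) at 11.1% ± 0.685 and 11.2% ± 1.35. Outside promoters the island-like sites (427) stood at 16.9% ± 0.501 and 17.1% ± 1.82, and the rest (1056) at 54.7% ± 3.04 and 53.1% ± 4.37.

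Low methylation was not confined to promoters. Of 321 tiles of 1 kb with at least 3 Kcn sites, 24 had no site in a promoter of their own gene and a mean under 10%. Of these, 1 in Kcnk4 lay in the promoter of the neighbouring gene Catsperz and 23 in no promoter. Catsperz promoters held 26 of the 59 Kcnk4 sites, none of them in the exon stretch of Kcnk4 printed above. The widest covered was in an exon of Kcns1, the silent subunit Kv9.1, where 83 sites averaged 6.07%, 4.90% and 8.06% in the STD and 5.77%, 6.69% and 3.19% in the ENR libraries. A tile of Kcnab3 (14 sites), which encodes the Kvbeta3 subunit, averaged 1.70% ± 0.416 and 1.25% ± 0.538. In both tiles the groups overlapped. The examples were chosen after their values were seen.

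Promoter means were available for 74 members, and 50 of them (67.6%) were under 5%, against 76.9% of all 13306 promoters. A mean over 20% was found in 5 (6.76%), against 6.91% of all promoters. Of the 5, Kcnn4, Kcnab2 and Kcnh2 had methylated sites by starts of non-coding transcripts inside the gene. In Kcnn4, the intermediate-conductance channel of blood and epithelial cells, all 10 promoter sites lay by the start of a retained-intron transcript at chr7:24382170 and averaged 82.4%, 87.0% and 82.9% in the STD and 91.8%, 96.1% and 84.2% in the ENR libraries. The ENR values were all above 84%, yet the lowest lay within the STD range. No site was covered within 500 bp of its coding starts.

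Kcnab2, the Kvbeta2 subunit, showed both states within 1 gene. Its 35 sites by the main coding starts, between 152477433 and 152477871 on chromosome 4, averaged 2.22% ± 0.367 in STD and 1.53% ± 0.200 in ENR mice. The 15 sites by the start of a non-coding transcript at 152430648 averaged 70.1%, 63.0% and 49.8% against 66.8%, 66.3% and 58.1%. These values cover 500 bp either side of a start. At another non-coding start, 152418407, 2 sites lay in that range, with 51.7%, 50.5% and 26.7% against 8.70%, 22.9% and 18.2%, and the groups did not overlap (exact permutation p = 0.1). Over all 6 sites of the 1 kb tile by this start the means were 56.2% and 52.9%, and the groups overlapped (exact permutation p = 0.9). Of the Kcnab2 sites, 42 also lie in the promoter of the neighbouring gene Nphp4, and the genes cannot be told apart there.

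Kcnh2 encodes the ERG channel, which repolarises the cell after firing. The 12 sites by its distal coding start at chr5:24351604 were at 1.40% ± 1.02 in STD and listed at 0 in all 3 ENR libraries. At an inner coding start, chr5:24329591, 6 sites averaged 26.6%, 35.5% and 32.4% in the STD and 46.2%, 49.8% and 41.0% in the ENR libraries, and the groups did not overlap. This start was picked after its values were seen and its difference was not tested.

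When starts of protein-coding transcripts alone were used, a definition chosen after seeing the data, 2 of 73 Kcn promoters (2.74%) exceeded 20%, against 4.89% of 13002 promoters. They were Kcne1, the MinK subunit that slows Kcnq1 channels, with 41.4%, 27.0% and 33.5% in the STD and 48.0%, 35.6% and 28.6% in the ENR libraries, and Kcnj13, the Kir7.1 channel of transporting epithelia, with 25.8%, 12.6% and 38.2% against 28.6%, 16.4% and 17.4%. The mice of a group differed by more than the groups did in both. Only 12 and 6 sites lay behind these values.

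Levels differed by channel class. Two-pore leak channels had the lowest median gene level (6.85% over 11 genes, from Kcnk15 at 3.84% to Kcnk5 at 30.1%) and calcium- and sodium-activated channels the highest (36.7% over 8 genes). The latter class includes Kcnu1 (85.3%), placed there as a Slo relative and not for its gating. The median was 16.8% for the 29 voltage-gated pore subunits, 14.7% for 9 silent subunits, 11.1% for 11 inward rectifiers and 22.7% for 11 auxiliary subunits. The share of sites in promoters differed between these classes as well, and the order was not tested.

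No member passed the test between housing groups. With limma on gene means, 0 of 79 members had a Benjamini-Hochberg adjusted p under 0.05 (background 0% of 14879 genes), and 0 had an unadjusted p under 0.05 (background 3.61%). The family contained 47 genes with a lower and 32 with a higher mean in ENR mice, and the median difference was -0.0926 percentage points, against -0.179 over all genes. Without ENR library 3 the split became 34 lower and 45 higher, and with quantile normalized sites or with libraries centred on their means it was 35 and 44. Without STD library 3 it was 56 and 23, and without both libraries numbered 3 it was 42 and 37. In 71 of 79 genes the difference was smaller than the larger of the standard deviations of the groups.

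**Figure D3:**
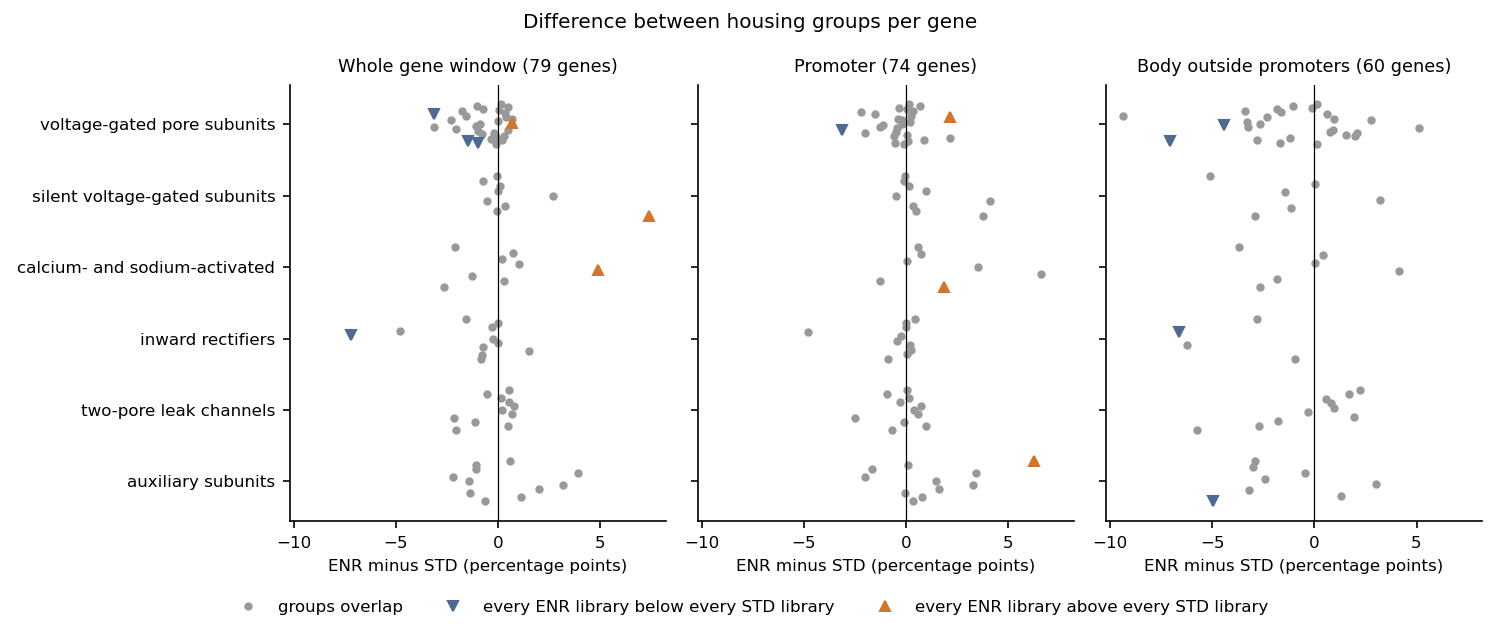
Difference between housing groups (ENR minus STD, percentage points) for each gene, by channel class, over the whole window, the promoter and the body. Triangles mark genes whose groups do not overlap (7 windows, 4 promoters, 4 bodies) and grey circles the rest, and no gene passed the limma test.

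Groups did not overlap in 4 members that were lower in ENR mice (background 5.31%) and 3 that were higher (background 2.98%). Of the lower members, Kcna7, Kcnj15 and Kcnq3 are described here. Kcna7, a Kv1.7 pore subunit, had 21.3%, 18.1% and 20.3% in the STD and 17.2%, 17.8% and 15.2% in the ENR libraries. The gap between the groups was narrow beside the spread within each. The difference was -3.13 points (adjusted p = 1.00, limma).

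Kcnj15 encodes the inward rectifier Kir4.2. It had 83.4%, 76.0% and 77.3% in the STD and 67.7%, 74.4% and 73.1% in the ENR libraries over 9 sites, a difference of -7.20 points (adjusted p = 1.00, limma). The lowest STD and the highest ENR mouse were 76.0% and 74.4%, so the groups lay side by side.

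Kcnq3 encodes a subunit of the M-current, which restrains repetitive firing. Its gene mean was 15.4%, 15.8% and 16.7% against 15.1%, 14.3% and 14.1% (adjusted p = 1.00, limma). The 12 body sites held the difference, with 68.6%, 66.5% and 72.8% against 65.4%, 61.6% and 59.7%. The body difference was -7.06 points (adjusted p = 1.00, limma). Kcnq5, of the same subfamily, had a gene mean difference of -0.0866 points.

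The higher members were Kcnv1, Kcnc4 and Kcnn4. Kcnv1, the silent subunit Kv8.1, had 24.4%, 24.0% and 18.4% in the STD and 37.7%, 26.5% and 24.7% in the ENR libraries over 9 sites, a difference of 7.37 points that was 3.32 points without ENR library 1. Kcnc4, the Kv3.4 subunit, had 2.10%, 1.66% and 1.40% against 2.60%, 2.11% and 2.47% over 89 sites. Kcnn4 had 36.1%, 36.7% and 34.8% against 37.6%, 47.9% and 36.9%, where ENR library 2 stood above the rest and the difference of 4.89 points was 1.35 without it. The adjusted p from limma was 1.00 in each.

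Other members with the lowest p per direction had groups that overlapped. On the lower side Kcnh1, the EAG1 channel, differed by -3.11 points, Kcnk4 by -2.15 and Kcnab3 by -1.10. Without ENR library 3 these were -1.49, -0.951 and -0.603 points, and without STD library 2 Kcnab3 was at -0.466. On the higher side the cardiac and neuronal GIRK4 subunit Kcnj5 differed by 1.49 points, the two-pore member Kcnk15 by 0.791 and Kcnip2, a calcium-binding partner of Kv4 channels, by 3.18. Kcnj5 was at 0.790 points without ENR library 1, Kcnk15 at 0.152 without STD library 3, and Kcnip2 at 1.28 without ENR library 2 and 6.23 without ENR library 3. Other omissions enlarged the differences. These were ENR library 2 for Kcnk4, STD library 1 for Kcnab3, ENR library 3 for Kcnj5 and STD library 2 for Kcnk15. Under the median over sites Kcnj5 and Kcnip2 turned to -2.07 and -0.544.

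Among promoters, limma called 0 of 74 members (background 0% of 13306), 3 had an unadjusted p under 0.05 (background 4.55%), and the difference was lower in 32 and higher in 42. With quantile normalized sites the split was 21 and 53, and with centred libraries 26 and 48. Groups did not overlap in 1 lower (background 5.7%) and 3 higher (background 3.95%) promoters. The 3 higher ones were Kcnab1, Kcnt2 and Kcnc1, and the lower one Kcnh4.

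Kcnab1 encodes the Kvbeta1 subunit, which speeds the inactivation of Kv1 channels. Its promoter was at 2.60%, 2.43% and 0.798% in the STD and 5.19%, 12.1% and 7.32% in the ENR libraries over 8 sites, so every ENR mouse exceeded every STD mouse. The difference was 6.26 points (adjusted p = 0.990, limma). The site with the largest difference in its promoter tile was in the coding part of the first exon, at chr3:65109880, with 2.53%, 9.89% and 0% against 16.3%, 31.8% and 30.3%. In the sequence printed above this is the first capital, and the other 5 covered cytosines differed by -2.11 to 7.23 points.

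Kcnt2 encodes Slick, a sodium-activated channel. Its promoter was at 1.44%, 1.22% and 1.39% against 4.19%, 2.89% and 2.49% over 23 sites (adjusted p = 0.990, limma). The STD libraries lay close together, the ENR libraries were more spread, and all levels were low. Kcnh4, an ELK-type channel of the EAG family, was at 1.79%, 3.09% and 6.84% against 1.19%, 0% and 1.09% over 6 sites (adjusted p = 0.990, limma). Its difference of -3.14 points was -1.68 without STD library 3. Under the median over sites, the difference of Kcnt2 was 0.

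All 4 SK and IK genes (Kcnn1 to Kcnn4), whose channels open on calcium and underlie the afterhyperpolarisation, had a higher promoter mean in ENR mice. The differences were 0.745, 0.0628, 3.52 and 6.60 points for Kcnn1 to Kcnn4, and the groups overlapped in each. The Kcnn4 value comes from the retained-intron start alone. All 4 stayed higher with quantile normalized sites, with centred libraries and without ENR library 3 or STD library 3. Of all 74 Kcn promoters, 42 were higher. The subfamilies in this paragraph were picked out for their signs. The promoter mean of 7 of 8 Kcnh genes was lower, also under both scalings, and 5 of 8 without ENR library 3. The bodies of the same 8 genes went the other way, with 2 lower and 6 higher, also under both scalings, but 5 lower and 3 higher without ENR library 3 or STD library 3. Inward rectifiers were lower in the gene mean in 10 of 11 genes, but in 6 of 11 with centred libraries and without ENR library 3. None of these members passed the limma test, and 58.3% of all gene means and 52.6% of all promoters were lower in ENR mice.

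In bodies outside promoters limma called 0 of 60 members (background 0% of 7392), and 0 had an unadjusted p under 0.05 (background 3.04%). Groups did not overlap in 4 lower (background 4.98%) and 0 higher (background 1.96%) bodies. The 4 were Kcnh1, Kcnj15, Kcnmb4 and Kcnq3, named after their values were seen. Kcnmb4, the neuronal beta4 subunit of the BK channel, had 94.7%, 93.4% and 94.0% in the STD and 85.5%, 90.2% and 91.6% in the ENR libraries over 14 sites. The STD mice lay within 2 points of each other and all ENR mice below them (adjusted p = 1.00, limma). These sites include the Kcnmb4 tile given below, where those at chr10:116426033 and chr10:116426057 differed by -33.6 and -20.6 points. The difference of -4.93 points was -3.16 without ENR library 1. The mean over the 60 bodies was 51.4% ± 2.72 in STD and 50.2% ± 3.72 in ENR mice, a difference of -1.19 points that turned to 0.962 without ENR library 3 and was -0.605 without both libraries numbered 3. Between libraries of the same number it was lower in ENR for all 3 numbers.

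The 18 members known for the excitability of hippocampal principal neurons, a list chosen with earlier results of these data known, were all covered. Their gene means were lower in 10 and higher in 8, with a median difference of -0.0449 points. No member passed, and groups were apart in Kcnq3 alone. Promoters were under 5% in 14 of the 18, and their median was 1.69%. Kcnd2, the dendritic A-type subunit Kv4.2, had a gene mean of 18.9% ± 1.55 in STD and 18.0% ± 2.60 in ENR mice. Kcnj6, the GIRK2 channel behind slow inhibitory potentials, had 47.7% ± 1.38 and 46.9% ± 4.27. Kcnma1, the BK channel, had 37.0% ± 2.36 and 34.9% ± 3.35, and Kcnn2, which with 159 had the most sites of all members, had 20.5% ± 0.834 and 20.7% ± 0.835.

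Of 7 members known mainly outside the brain, 5 were kept (Kcnu1, Kcnk5, Kcne1, Kcne3 and Kcna10), with a median level of 37.9% against 17.6% for the excitability list. The gene mean was lower in 4 and higher in 1, and the groups overlapped in all 5. The lists differ in how many sites fell into promoters, so the levels are not compared further.

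Among the 321 tiles, 0 were called by limma (background 0% of 72222) and 14 had an unadjusted p under 0.05 (background 3.98%), 9 of them lower and 5 higher in ENR mice. The lowest p belonged to Kcnk4, which encodes TRAAK, a leak channel opened by membrane stretch. Its tile held 10 sites within 110 bp, from 6928009 to 6928118 on chromosome 19, in an exon that is coding in the main transcript. The level was 26.5%, 25.2% and 25.2% in the STD and 6.84%, 7.70% and 7.29% in the ENR libraries.

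The Kcnk4 groups were therefore tight and far apart, with a difference of -18.3 points (limma p = 0.000314, adjusted p = 1.00, exact permutation p = 0.1, the smallest that 3 against 3 can give). The tile was named for its separate groups and low p, and that choice fixed the permutation p. All 10 sites were lower in ENR mice and 7 had groups that did not overlap. Sites and strands are parts of the same tile mean, so they are not separate results. The 5 forward-strand sites averaged 30.5% ± 3.95 against 9.41% ± 2.18, and the 5 reverse-strand sites 20.7% ± 4.01 against 5.14% ± 1.35. The difference stayed between -18.6 and -17.3 points in all 10 alternatives, and adjusted p stayed between 0.696 and 1.00. Of these alternatives, the other scale, the replicate block and the higher site minimum cannot move the difference. Over the whole gene, with 59 sites, it shrank to -2.15 points.

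The other tiles with separate groups and the lowest p were smaller or thinner. In Kcnmb4 (3 intronic sites) the level was 86.6%, 89.6% and 93.3% against 79.0%, 69.8% and 73.3%. Its sites differed by -33.6, -20.6 and 6.77 points. In Kcnq1 (3 intronic sites from 143328592 to 143328618 on chromosome 7) the level was 89.5%, 80.6% and 90.9% against 70.7%, 75.7% and 56.9%. These sites differed by -8.21, -2.55 and -47.0 points, and the groups overlapped at each. The higher tiles were those of the Kcnt2, Kcnv1 and Kcnab1 promoters, with differences of 2.33, 6.07 and 5.25 points. The Kcnv1 tile was at 0.336%, 0.488% and 0% against 11.5%, 4.27% and 3.23%, and its difference was 3.47 points without ENR library 1. The Kcnab1 tile was at 1.75%, 2.77% and 0% against 3.73%, 11% and 5.59%, and its difference was 3.15 points without ENR library 2. All had adjusted p = 1.00 in limma.

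At single sites, limma called 0 member sites (background 0% of 615152). A mean difference over 25 points was found in 53 lower sites, or 1.20% of the family's sites (background 0.879%), and 46 higher sites, or 1.04% (background 0.531%). The family also held more sites of middle level, with 23.4% between 10% and 90% against 18.0% in all gene windows, and the part of this in the share of large differences was not tested. The groups were apart in 20 of the 53 lower and 17 of the 46 higher sites, against 2385 of 5808 and 1426 of 3506 in all gene windows. Among sites over 25 points the family's shares were therefore not above the background. Over all sites they were 20 and 17 of 4414, against 2385 and 1426 of 660381, and both shares were above the background.

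A Kcnh1 intron held the most extreme of the named sites, at chr1:192333951, with 71.4%, 60.0% and 65.5% in the STD and 26.5%, 26.5% and 0% in the ENR libraries. A second Kcnh1 intron site, chr1:192494938, was the opposite, with 76.6%, 81.5% and 65% against 100% in all 3 ENR libraries. At chr10:116426033 in Kcnmb4 the values were 90.8%, 83.6% and 100% against 60.9%, 52.8% and 60.0%. This site is part of the Kcnmb4 tile and body given above, so it is not a separate result. Sites in introns of Kcnh6 and Kcnmb2 were higher by 25.8 and 27.3 points. None passed the test, with adjusted p = 0.852 in limma for each.

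Both strands of a CpG were covered for 638 member CpGs, which gave a check of large differences within the same mice. The levels of the strands agreed, with Pearson's r = 0.965 across CpGs. The ENR minus STD differences did not, with r = 0.00171, and over the 108838 such CpGs of all gene windows r was 0.969 for levels and 0.0255 for differences. These points share libraries and most lie near 0%. Restricted to the 49 member CpGs with a mean between 20% and 80%, r was 0.781 for levels and 0.0998 for differences.

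Of these cytosines, 16 differed by over 25 points. Their partner on the other strand moved the same way in 9, and in 0 did it also exceed 25 points. The median difference was 31.9 points at the site and 0.848 points, in the same direction, at its partner. In all gene windows the partner moved the same way for 51.4% of 1126 such cytosines. The closest match among members was in the Kcnk4 exon, with -34.0 points on the forward and -24.6 points on the reverse strand of 1 CpG, the last CG of the sequence printed above. An intronic Kcnab2 CpG differed by -50.5 points on the forward and by -0.432 points on the reverse strand.

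**Figure D4:**
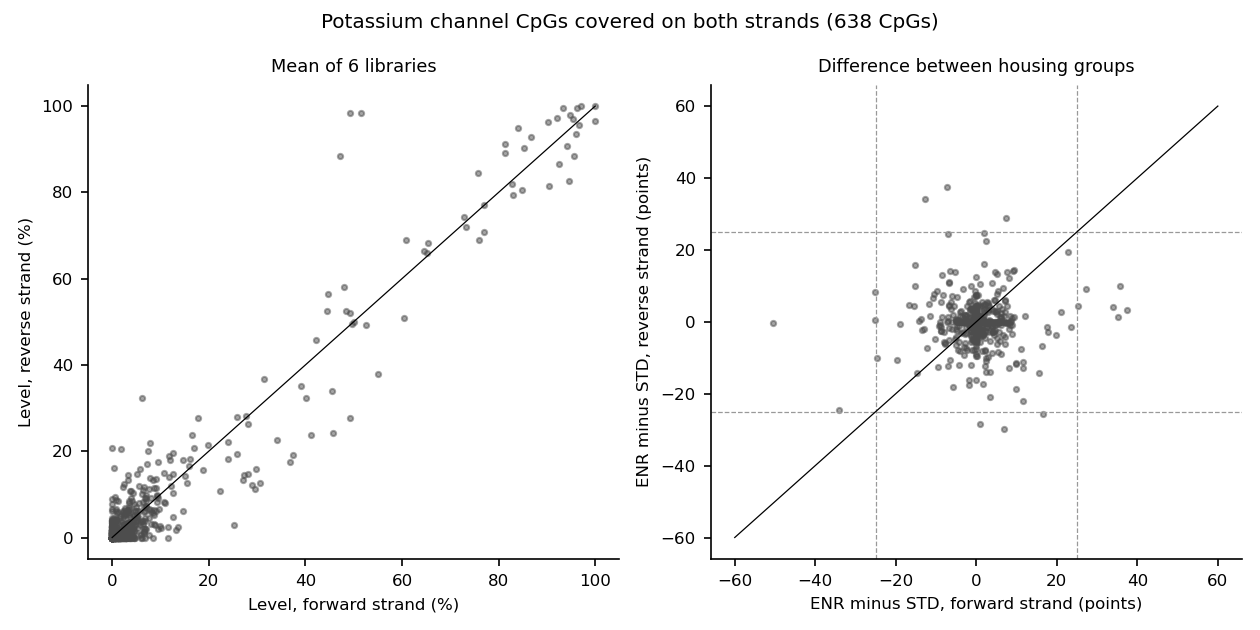
Forward against reverse strand of the 638 potassium channel CpGs covered on both, for the level (percent, left) and for the ENR minus STD difference (percentage points, right), with the diagonal and dashed lines at 25 points. Levels follow the diagonal (r = 0.965) and differences do not (r = 0.00171).

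Sites over 25 points also came in runs. Grouping neighbours within 100 bp and of 1 direction gave 79 groups, of which 67 were single sites, 9 pairs and 3 longer runs. Each of the 3 longer runs lay on a single strand. Sites of 1 strand within a fragment can be read from the same molecules, so such a run is not several independent measurements.

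The first run was at the end of an exon of Kcnc1, the Kv3.1 channel of fast-spiking neurons, within 59 bp from 46398211 to 46398269 on chromosome 7. Of 7 covered sites there, 5 differed by over 25 points, and the 7 averaged 0.371%, 5.14% and 5.19% in the STD and 27.4%, 54.3% and 11.5% in the ENR libraries. Every ENR mouse was higher, yet the ENR mice spread widely, and the exact permutation p was 0.1. The second run, of 4 sites in an intron of Kcnc1, averaged 51.3%, 76.6% and 26.1% against 19.5%, 6.25% and 32.7%, and its groups overlapped. All sites of both runs were on the reverse strand, as the capital G in the sequences shows.

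These 7 sites lie within the Kcnc1 promoter, which was at 3.29%, 3.30% and 3.36% against 5.21%, 7.43% and 3.72% over 104 sites (adjusted p = 0.990, limma). The difference of 2.14 points was 1.15 without ENR library 2. The 50 sites by the nearer coding start were at 1.73% ± 0.646 in STD and 2.69% ± 0.368 in ENR mice, and the 26 by the other coding start at 2.64% ± 0.758 and 1.14% ± 0.480. Kcnc1 had 11 sites over 25 points, 6 lower and 5 higher.

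The third run lay in Kcnq1, which encodes the cardiac and epithelial Kv7.1 channel. An intron of Kcnq1 holds the start of Kcnq1ot1, an antisense RNA that is imprinted, with its promoter methylated on the chromosome from the mother and free on the other. Of 21 covered sites within 3 kb of that start (143296549 on chromosome 7), the 11 closer to it, from 143295469 to 143295618, were near 0 in all mice, with a mean of 2.25%, 2.5% and 1.27% in the STD libraries and 0 in the ENR libraries. The 10 farther sites, from 143295375 to 143295443, were at a middle level of 51.0% over the 6 libraries. The step fell between the sequences printed above, within 26 bp.

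At the 10 methylated sites the mice differed widely. The level was 39.3%, 52.5% and 31.9% in the STD and 70.4%, 83.8% and 28.2% in the ENR libraries, so ENR library 3 lay below every STD mouse and the other ENR mice above them. The mean difference of 19.5 points had an exact permutation p of 0.4, and it was 35.8 points without ENR library 3 and 8.0 points without ENR library 2. The 5 forward-strand sites differed by 34.7 points (43.5%, 38.2% and 15.5% against 79.9%, 86.7% and 34.8%, exact permutation p = 0.3), and the 5 reverse-strand sites by 4.34 points (35.1%, 66.9% and 48.4% against 60.9%, 81.0% and 21.5%, exact permutation p = 0.9). Between libraries of the same number, the forward-strand level was higher in ENR for all 3 numbers and the reverse-strand level for 2 of 3. The permutations did not use the numbers, and a pairing by number was not established. Without ENR library 3 the differences were 50.9 points on the forward and 20.8 on the reverse strand, and without ENR library 2 they were 24.9 and -8.93. Without STD library 1 the reverse-strand difference was -3.16 and without STD library 2 it was 12.7. Kcnq1 held 14 of the 99 sites over 25 points, 7 in each direction, and its gene mean was 29.8% ± 2.55 in STD and 29.4% ± 7.69 in ENR mice.

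**Figure D5:**
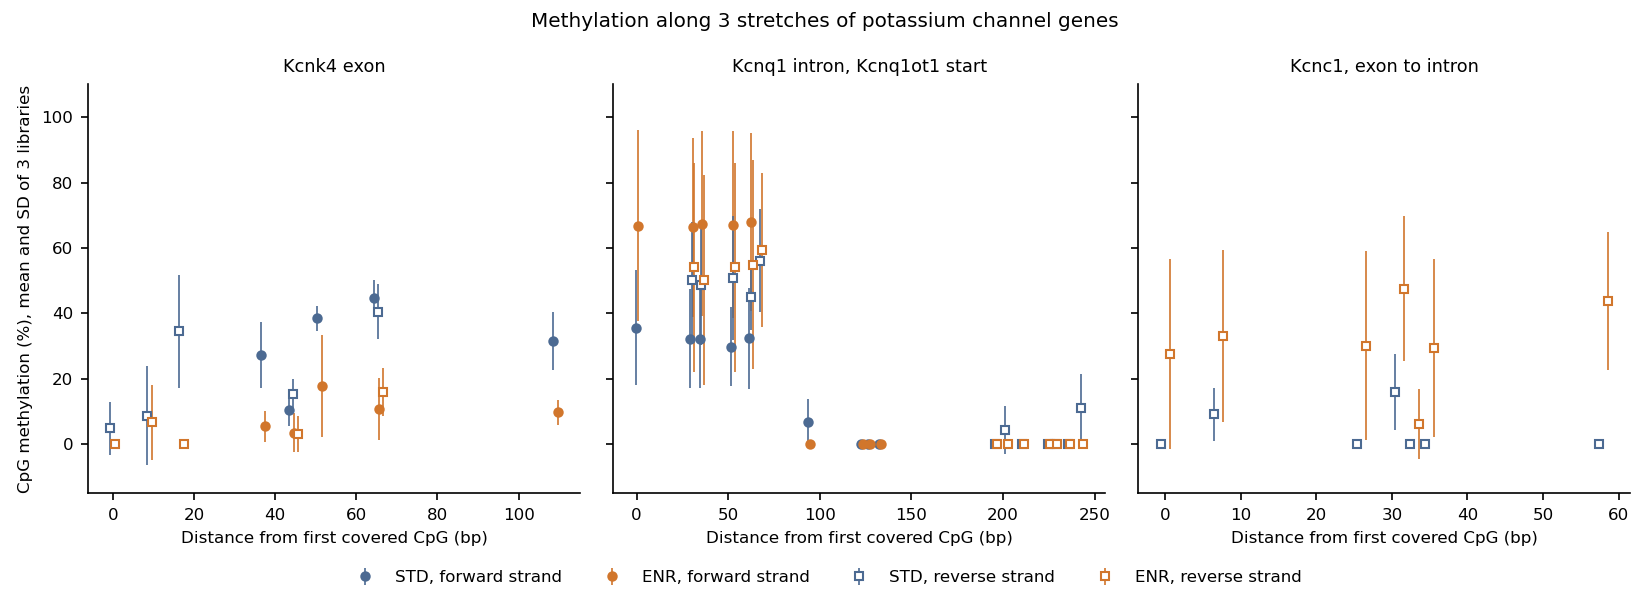
CpG methylation (percent, mean and SD of 3 libraries) against distance from the first covered CpG (bp) in the Kcnk4 exon, the Kcnq1 intron and the Kcnc1 exon end, with filled circles for forward and open squares for reverse strand sites. ENR mice are lower at all 10 Kcnk4 sites, while in Kcnq1 the forward strand differs by 34.7 points and the reverse strand by 4.34, which ran from -8.93 to 20.8 with 1 library left out.

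Tiles that stayed between 35% and 65% in every library were rare. They were 2 of 321 Kcn tiles (0.623%), against 1.83% of all tiles, in introns of Kcnab2 and Kcnma1. The Kcnab2 tile, which is the one by the start at 152418407, had 61.7%, 64.2% and 42.7% in the STD and 44.5%, 50.3% and 63.8% in the ENR libraries, and the Kcnma1 tile 52.5%, 58.7% and 42.2% against 41.2%, 61.8% and 40.3%. The tile with the Kcnq1 stretch, which also holds the unmethylated sites, was not among them.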

How the data were processed

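Genomic DNA of micro-dissected dentate gyrus from 3 STD and 3 ENR mice was analysed by RRBS. Per the methods and the submitters' processing notes, which give the versions named here, the authors trimmed reads with Trim Galore 0.4.0 and cutadapt 1.8.1, aligned them to mm10 with Bismark 0.16.1, and kept cytosines with at least 10 reads in every sample with methylKit 1.5.2. The methods give other versions of Trim Galore and Bismark. The deposited values are percent methylation per cytosine and library, not normalized between libraries. Every site weighs the same in a mean whatever its depth, and neighbouring sites can share reads.

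Sites were assigned to genes with GENCODE M21 and sequences read from GRCm38. Means per gene, promoter (1 kb either side of any start), body outside promoters and 1 kb tile (at least 3 sites) entered linear models (limma 3.58.1, R 4.3.3) in which eBayes let the prior variance follow the level. Models covered the whole table, with Benjamini-Hochberg adjustment. For single values, all 20 regroupings of the libraries gave an exact two-sided permutation p, at least 0.1. It is 0.1 wherever the groups do not overlap. The test on reads that the study used could not be run on percentages. The fit was first tested on simulated data. The members, the lists and the rules for named genes (lowest p per direction, highest and lowest levels, promoters over 20%, groups apart) were chosen with earlier results of these data known. The sites of a mouse are not replicates, and the library was the unit throughout. Alternatives were the median over sites, averaged strands, minimums of 3 and 10 sites, other scales, scalings and windows, a replicate block and leaving out libraries. Some members are counted but not reported here by name.

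Replicate numbers were checked for pairing. Deviations of same-numbered libraries from their group means correlated over 14879 genes with r = 0.173, 0.133 and 0.366, while libraries with numbers 1 and 2 crossed gave 0.174 and 0.108. Only the libraries numbered 3 stood out, so these correlations do not show a pairing by number. The labels name no shared litter, batch or day, and the reported fits used the housing group alone.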

Additional observations from a re-analysis of the deposited data

How the results depend on the processing

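Limma called 0 Kcn genes, promoters, bodies or tiles in the reported fits and under all of their alternatives. With the replicate block it also made 0 calls, and 1 gene, 4 promoters, 1 body and 17 tiles had an unadjusted p under 0.05. Over the alternatives the count at an unadjusted p under 0.05 ran from 0 to 5 for genes, 0 to 7 for promoters, 0 to 4 for bodies and 11 to 23 for tiles. The family mean difference ran from -0.913 to 0.713 points for genes, -0.0597 to 0.687 for promoters and -2.75 to 0.962 for bodies, and its highest value for genes and bodies came without ENR library 3. Of 434 values of named genes, promoters, bodies and tiles under alternatives, 424 kept their direction, 8 were 0 and 2 turned. Those that turned were Kcnj5 (-2.07) and Kcnip2 (-0.544) under the median over sites, and the cause was not tested. Changing the scale or the prior variance of the test, adding the replicate block or changing the site minimum cannot move a difference. The 424 include these settings, so fewer put the direction to a test. The family level was 22.0%, and 12.1% under the median over sites, and the cause was not tested. The 99 sites over 25 points became 182 at a limit of 20 points, 9 at 40 points and 151 without both libraries numbered 3, where fewer mice stand behind each mean, and 116 to 141 with 1 library left out. Without both libraries numbered 3 the split was 69 lower and 82 higher, and with quantile normalized sites 43 and 52, against 53 and 46. At the 5 reverse-strand Kcnq1 sites the difference ran from -8.93 to 20.8 points with 1 library left out, turning without STD library 1 (-3.16) or ENR library 2, and at the 5 forward-strand sites from 24.9 to 50.9, settings chosen after seeing the data. Read depth is unknown, so no interval for counting error is given.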
